A study of Arabidopsis thaliana with 12 samples.

Results

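This account sets mature seed of the flowering mutant ft-1, ripened at 20 °C in 16 h days, against mature seed of the wild type ripened at 10 °C, with 3 arrays in each group, 6 of the 12 in the series. The 6 arrays were taken by their titles, which give long days for both groups. Because these groups differ in genotype and in temperature, their direct difference cannot be assigned to either. The genes of most interest were therefore those where ft-1 seed and cool-matured seed lay on opposite sides of a shared control, wild-type seed ripened at 20 °C in long days.

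The series measured RNA of mature Arabidopsis thaliana seed from opened siliques, in the Landsberg erecta (Ler) background, on Affymetrix ATH1 arrays. The ft-1 group is a single-marker stock in Ler, grown at 20 °C in 16 h days. The 10 °C group is Ler grown at 20 °C in 16 h days until flowering and then kept at 10 °C until its seed was mature. Its array titles give long days, as do those of the ft-1 group. Ler kept at 20 °C in 8 h days gave 3 short-day arrays, and Ler kept at 20 °C in 16 h days gave the 3 control arrays. For the ft-1 arrays the title and genotype give ft-1, whereas the source name is Glabra, so "ft-1" here means the arrays so labelled. No probe set was paired with the mutated gene in the annotation used, and the label could not be checked against it. The labels do not tie the replicates to separate plants or harvests, so a p-value here covers only array-to-array spread within a group, part of which may be technical.

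FT encodes a mobile protein that promotes flowering in long days, and it also acts in the mother plant's fruit to pass temperature information to seed coat development. Cool conditions during seed maturation are known to deepen the dormancy of Arabidopsis seed. Mature seed stores transcripts of late embryogenesis abundant (LEA) proteins, storage proteins and chaperones that accompany drying and the entry into quiescence. In RNA from whole seed, fewer cells of a type and less RNA per cell cannot be told apart.

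All values below are log2 of the deposited array signal unless stated, and differences are ft-1 minus 10 °C with their standard error (SE) from 1 limma fit over all 22746 non-control probe sets. A probe set passed when its Benjamini-Hochberg adjusted p was under 0.05. By this test 2860 probe sets (12.6%) differed, of which 1651 (7.26%) were higher and 1209 (5.32%) lower in ft-1 seed. In 5995 (26.4%) the 3 ft-1 and the 3 10 °C arrays did not overlap. At an unadjusted p under 0.05, 6126 probe sets (26.9%) differed, 15.1% higher and 11.9% lower in ft-1. Each genotype or temperature difference was also taken against the control arrays, which both share. For ft-1 seed 45 probe sets (0.198%) passed against the control, 31 higher (0.136%) and 14 lower (0.0615%). For 10 °C seed 3883 (17.1%) passed, 1458 higher (6.41%) and 2425 lower (10.7%).

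The second ft-1 array stood nearer to the cool seed than the others did. On the first principal component, which held 19.4% of the variance, it lay at 3.73, against -68.3 and -63.1 for ft-1 arrays 1 and 3 and 83.1 to 119 for the 10 °C arrays. Its correlation with the 10 °C arrays across probe sets was 0.889 to 0.890, against 0.861 to 0.878 for the other ft-1 arrays. The spiked poly-A controls averaged 5.65, 7.88 and 6.09 on the ft-1 arrays and 8.85, 8.12 and 8.76 on the 10 °C arrays (two-sided exact permutation p = 0.1, the floor for 3 arrays against 3). The hybridisation controls were lower by 0.62 in ft-1 (exact p = 0.1). The difference between 3' and 5' probe sets was lower in ft-1 by 0.56 for one GAPDH pair and higher by 0.38 for the other. For actin the 3' probe set exceeded the 5' one by 3.92 on average in ft-1 and by 3.89 at 10 °C, and for ubiquitin by 0.83 and 0.94. Between the groups, ft-1 minus 10 °C, these differed by 0.03 for actin and -0.11 for ubiquitin. The part of these controls in the results below was not tested. Without ft-1 array 2, 4846 probe sets (21.3%) passed, against 1271 and 1330 without ft-1 arrays 1 and 3, and 1351, 3253 and 1405 without 10 °C arrays 1, 2 and 3.

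Genes with opposite displacements were few where both had to pass. Only 4 of 22746 probe sets (0.0176%) passed against the control in both ft-1 and 10 °C seed with opposite signs. HIS1-3, TET2 and the unnamed probe set 254451_at were high in ft-1 and low at 10 °C, and LCR69 was low in ft-1 and high at 10 °C. These values chose the genes, so they are given as a description, and an adjusted p beside them says only on which side of the selection threshold a gene fell.

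HIS1-3 encodes a linker histone that is induced by drought and abscisic acid. Its signal was 9.69, 10.28 and 9.40 in ft-1 seed, 6.47, 7.07 and 6.22 in 10 °C seed, 8.81, 8.69 and 8.75 in short-day seed and 8.50, 8.55 and 8.37 in control seed. The ft-1 arrays lay above every array of the other groups and the 10 °C arrays lay below every one of them. The displacement from the control was 1.32 in ft-1 and -1.89 at 10 °C, and ft-1 minus 10 °C was 3.20 ± 0.23 (SE). Without ft-1 array 2, its highest array, the ft-1 displacement was 1.07 (limma adjusted p = 0.0374).

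TET2 encodes a tetraspanin, a small membrane protein. It measured 7.99, 8.24 and 7.82 in ft-1 seed, 5.95, 6.26 and 5.93 in 10 °C seed, 8.14, 7.95 and 7.83 in short-day seed and 7.16, 7.06 and 6.75 in control seed. The ft-1 and short-day arrays overlapped, both above the control arrays, with the 10 °C arrays lowest. The displacement was 1.03 in ft-1 and -0.94 at 10 °C. It was the probe set nearest the threshold from inside, with a larger adjusted p of 0.0396, and without ft-1 array 2 the ft-1 displacement was 0.91 with an adjusted p of 0.0578 by limma.

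LCR69 encodes a small cysteine-rich peptide of the plant defensin family. It measured 7.10, 7.44 and 7.27 in ft-1 seed, 9.82, 9.31 and 9.66 in 10 °C seed, 7.39, 7.31 and 7.54 in short-day seed and 8.45, 8.39 and 7.99 in control seed. The ft-1 and short-day arrays overlapped and lay below the control, and the 10 °C arrays lay above all others. The displacement was -1.01 in ft-1 and 1.32 at 10 °C. Its relative LCR68 had the same order, with 5.57, 5.66 and 5.50 in ft-1 seed, 8.34, 8.45 and 8.26 in 10 °C seed and 6.17, 6.28 and 6.22 in control seed, but its ft-1 displacement of -0.65 did not pass. These genes are similar in sequence, and the probe sets may share signal.

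The unnamed probe set 254451_at measured 7.85, 7.80 and 7.39 in ft-1 seed, 4.62, 4.87 and 4.79 in 10 °C seed, 5.74, 5.63 and 5.60 in short-day seed and 5.50, 5.27 and 6.02 in control seed. The ft-1 arrays lay above and the 10 °C arrays below all others. Its displacement of 2.09 in ft-1 was the larger one, against -0.84 at 10 °C. The nearest probe sets outside the threshold were 253999_at, 244944_s_at and 255668_s_at, all unnamed, and AT4G01870, with larger adjusted p of 0.0692, 0.0856, 0.0882 and 0.0975.

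**Figure D1:**
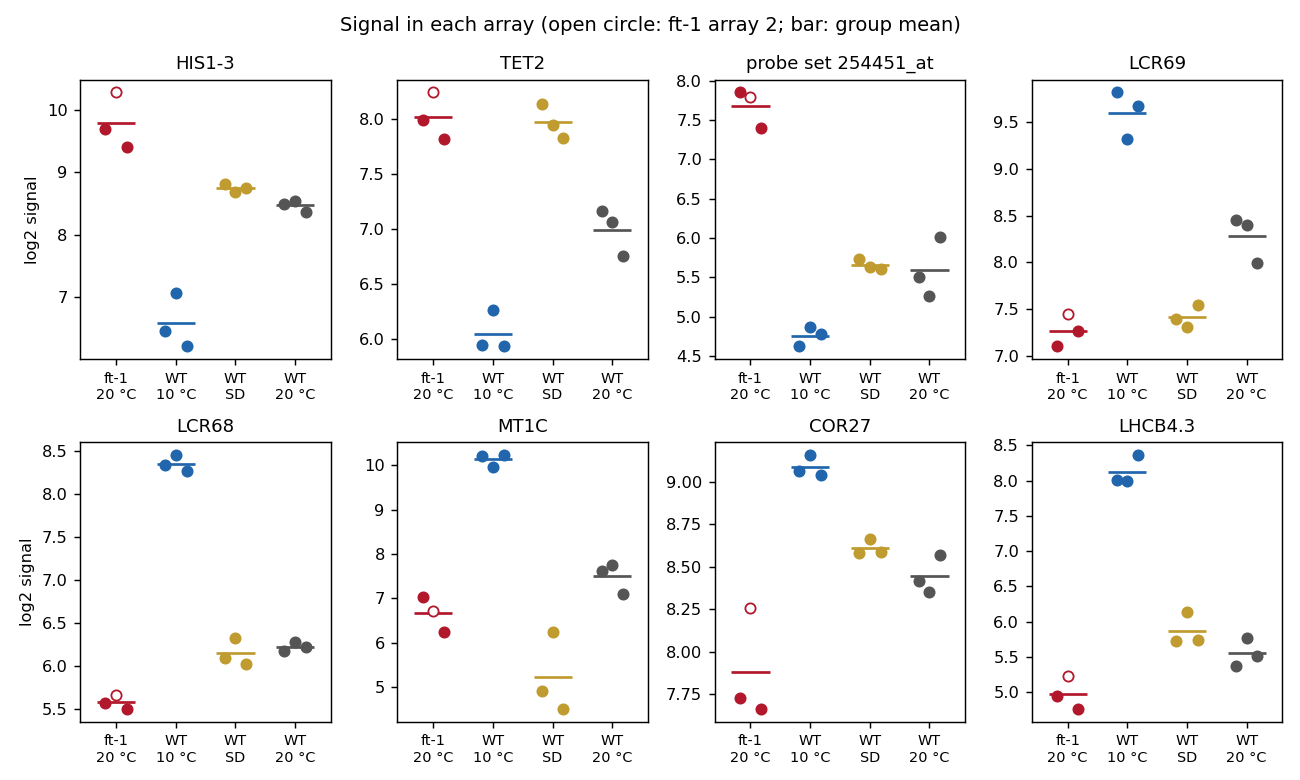
Log2 signal of 8 opposite-direction genes in each array (vertical axes differ), by group: ft-1 at 20 °C, wild type at 10 °C, wild type in short days (SD) and wild type at 20 °C in long days. Bars are group means and the open circle is ft-1 array 2. In HIS1-3, TET2 and 254451_at the ft-1 arrays lie above and the 10 °C arrays below the control, and in the other 5 panels the order is the reverse.

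Leaving out single arrays changed most of this short list. Leaving out ft-1 array 2 gave 10 probe sets (0.044%), 2 high and 8 low in ft-1. Of the 4 above, 3 were among them. The 7 added ones were all low in ft-1 and high at 10 °C, and the named ones were COR27, AT5G49690 and AT1G14940. Leaving out ft-1 array 1 or 3 gave 2 and 3, and leaving out either 10 °C array 1 or 10 °C array 3 gave 1. Leaving out control array 1, 2 or 3 gave 0, 1 and 2 probe sets. HIS1-3 itself missed the ft-1 test without ft-1 array 1 (adjusted p = 0.0678) and without control array 1, 2 or 3 (adjusted p = 0.135, 0.119 and 0.0541).

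COR27 is a cold-regulated gene. It measured 7.73, 8.26 and 7.66 in ft-1 seed, 9.07, 9.16 and 9.04 in 10 °C seed, 8.58, 8.66 and 8.59 in short-day seed and 8.42, 8.35 and 8.57 in control seed. All ft-1 arrays lay below the control, but array 2 lay close to it. The ft-1 displacement was -0.56 with all arrays and -0.75 without array 2 (limma adjusted p = 0.241 and 0.0419). AT5G49690, of the UDP-glycosyltransferase family, had an ft-1 displacement of -0.87 with all arrays and -1.05 without array 2, and was 0.65 higher at 10 °C than in the control. AT1G14940, of the major latex protein family, was -0.97 without array 2 in ft-1 and 1.01 at 10 °C.

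A second form asked only for order: all ft-1 arrays on one side of all control arrays, and all 10 °C arrays on the other. It held for 295 probe sets (1.3%), 133 with ft-1 high and 162 with ft-1 low. Without ft-1 array 2, 1231 (5.41%) met it. The same count was 446 without ft-1 array 3, and 485, 469 and 619 without control arrays 1, 2 and 3. Fewer arrays to order make such a count larger by construction. A further form, a direct difference that passed with the control mean between, held for 1664 (7.32%), 832 in each direction.

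Most ordered genes moved by modest amounts. With ft-1 high, the median displacement from the control was 0.43 in ft-1 and 0.68 in size at 10 °C, and the displacement at 10 °C was the larger in 100 of 133. With ft-1 low, the medians were 0.63 and 0.66 in size, and the 10 °C displacement was the larger in 92 of 162. In 6 and 27 probe sets, in the same order, both displacements reached 2-fold. At 10 °C 64 and 59 passed against the control, while in ft-1 3 and 1 did.

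Among the ordered genes high in ft-1, the largest by the smaller of both displacements were HIS1-3, AT1G22890, AT5G38040, TET2 and AT1G72660. AT1G22890 measured 6.15, 5.21 and 5.88 in ft-1 seed, 3.13, 3.30 and 3.33 in 10 °C seed and 4.78, 4.59 and 4.10 in control seed. AT5G38040, another UDP-glycosyltransferase family gene, measured 3.72, 4.12 and 4.43 in ft-1 seed, 1.99, 0.94 and 0.84 in 10 °C seed and 2.78, 3.41 and 3.24 in control seed. Both had ft-1 arrays clear of the control, as the ordered form required, but neither ft-1 displacement passed alone (limma adjusted p = 0.308 and 0.639). The other 7 named by the same rule were AT5G59050, AT3G04890, AT5G12100, AT5G61880, AT1G72160, AT4G32330 and AT4G27900. AT5G12100 encodes a pentatricopeptide repeat protein and AT1G72160 a Sec14-type lipid-binding protein. Their ft-1 displacements ran from 0.63 for AT4G32330 to 0.80 for AT5G59050.

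Ordered genes low in ft-1 included the metallothionein MT1C, a small metal-binding protein. It measured 7.03, 6.71 and 6.24 in ft-1 seed, 10.21, 9.97 and 10.23 in 10 °C seed, 4.90, 6.25 and 4.50 in short-day seed and 7.62, 7.76 and 7.10 in control seed. The 10 °C arrays lay far above the rest, and the short-day arrays reached lower than the ft-1 arrays, which the highest of them just met. The ft-1 displacement of -0.84 did not pass (limma adjusted p = 0.428), and the 10 °C displacement of 2.64 did.

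AT4G04460, an aspartic protease family gene, showed the largest named ft-1 displacement at -2.96. It measured -0.49, 2.91 and -0.80 in ft-1 seed, 4.85, 5.02 and 5.54 in 10 °C seed and 3.32, 3.71 and 3.47 in control seed. The groups did not overlap, as the ordered form required, but ft-1 arrays 1 and 3 were in the dim range and array 2 lay well above them. The ft-1 adjusted p was 0.177 by limma. AT4G01870 measured 8.81, 8.34 and 8.48 in ft-1 seed, 10.25, 10.70 and 10.50 in 10 °C seed and 9.72, 9.36 and 9.19 in control seed. It was bright, and its displacements were -0.88 in ft-1 and 1.06 at 10 °C. That its groups did not overlap was part of its selection. AT1G57770, AT1G75180, AT1G77230, AT5G61620, AT3G24570, AT5G25240, AT4G31875 and AT5G49690 complete the named set, with ft-1 displacements from -2.15 for AT1G57770 to -0.67 for AT5G25240.

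**Figure D2:**
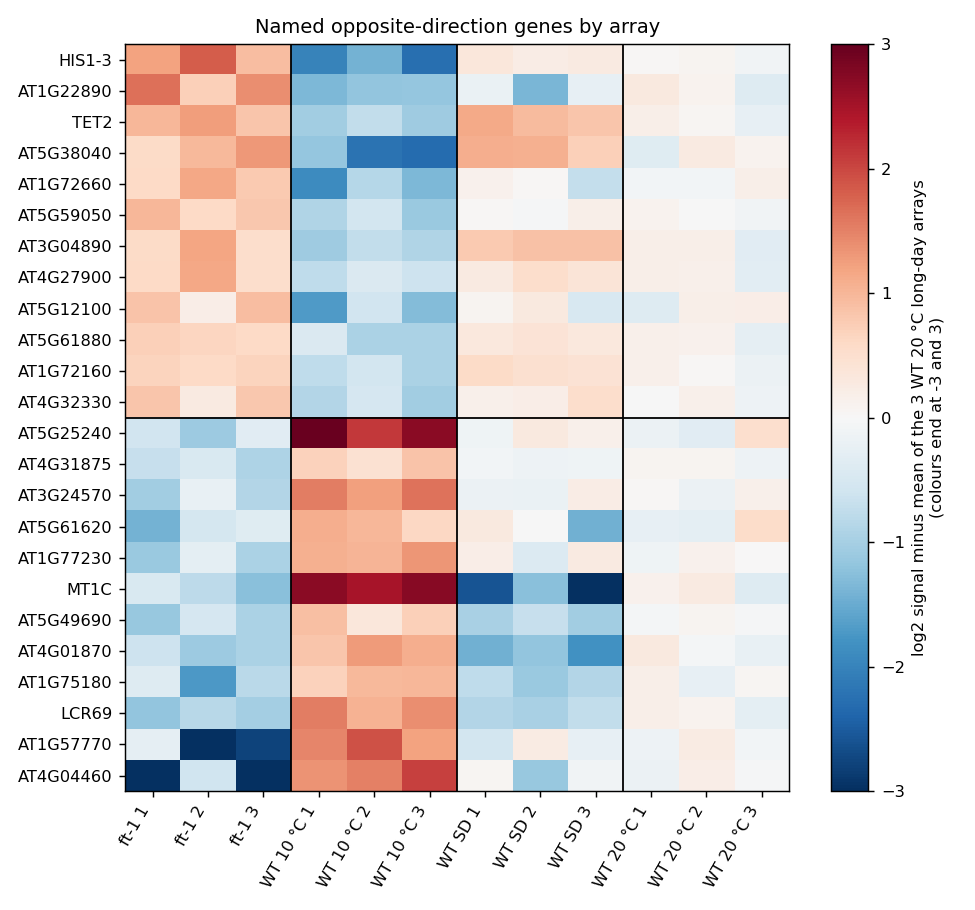
Log2 signal of the 24 named opposite-direction genes minus the mean of the 3 wild-type 20 °C long-day arrays, with a column for each of the 12 arrays (colours end at -3 and 3). The upper 12 genes are high in ft-1 and low at 10 °C, and the lower 12 the reverse. The short-day (SD) arrays entered the choice only through the mean signal limit and the shared spread, not the direction. Their columns follow no single side.

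Some ordered genes with known roles were chosen after their values were seen. Cpn60beta3, a plastid chaperonin subunit, measured 6.62, 6.56 and 6.56 in ft-1 seed, 4.70, 5.14 and 3.98 in 10 °C seed and 6.26, 6.35 and 5.37 in control seed. SWEET6, a member of a sugar exporter family, measured 8.25, 8.60 and 8.38 in ft-1 seed, 10.01, 10.02 and 9.98 in 10 °C seed and 8.94, 8.80 and 8.99 in control seed. LHCB4.3, a minor light-harvesting antenna protein, measured 4.95, 5.23 and 4.76 in ft-1 seed, 8.01, 7.99 and 8.36 in 10 °C seed and 5.37, 5.77 and 5.51 in control seed. In all of these the larger step was between the 10 °C arrays and the control.

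Several of the largest direct differences were displacements of the 10 °C seed. AT1G68240, a basic helix-loop-helix transcription factor gene, measured 9.16, 10.14 and 9.22 in ft-1 seed, 4.51, 5.69 and 5.02 in 10 °C seed and 9.44, 9.40 and 8.64 in control seed. It was 21.6-fold higher in ft-1 than at 10 °C (4.43 ± 0.31 SE, limma adjusted p = 4.65e-07), while the ft-1 and control arrays overlapped. Among the 10 largest rises it was the one whose 10 °C mean was above the dim limit of 2.88. The largest, AT1G77550, measured 5.60, 4.59 and 5.40 in ft-1 seed against -0.53, -0.68 and -0.32 in 10 °C seed (5.71 ± 0.46 SE, limma adjusted p = 1.75e-06). AT1G16830, AT4G37380 and AT3G23020 encode pentatricopeptide repeat proteins, which act on organelle RNA, and were higher by 5.15, 4.27 and 3.96. AT1G64190, a 6-phosphogluconate dehydrogenase gene, was higher by 3.61. AT3G52170, AT5G39840, AT5G12400 and AT3G19200 complete the 10, at 5.43, 4.92, 4.29 and 3.82. For the 9 with 10 °C means in the dim range, the fold is not well fixed.

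Among the 10 largest falls, AT2G43590, a chitinase family gene, measured 7.76, 8.80 and 7.73 in ft-1 seed, 12.98, 12.75 and 12.93 in 10 °C seed and 8.19, 8.53 and 7.97 in control seed. It was 27.6-fold higher at 10 °C than in ft-1 (ft-1 minus 10 °C -4.79 ± 0.26 SE, limma adjusted p = 2.56e-08), and its ft-1 and control arrays overlapped. AT4G10270, a wound-responsive family gene, measured 4.95, 5.38 and 4.67 in ft-1 seed, 10.48, 9.30 and 10.32 in 10 °C seed and 5.19, 5.46 and 5.29 in control seed (-5.03 ± 0.38 SE, limma adjusted p = 7.72e-07). AT3G62730 measured 4.67, 5.61 and 5.13 in ft-1 seed and 10.36, 9.49 and 10.54 in 10 °C seed (-4.996 ± 0.35 SE, limma adjusted p = 4.65e-07). AT2G43590 and AT4G10270 were near the control in ft-1 and far above it at 10 °C. SWEET7, the lipid transfer family gene AT2G18370, AT5G09480, AT4G04460, AT5G20940, the organic cation transporter gene OCT1 and the developmental regulator ULT1 complete the falls. They ran from -4.75 for SWEET7 to -3.81 for ULT1. Each gene from SWEET7 to ULT1 had an ft-1 mean in the dim range, so its fold is not well fixed. Without ft-1 array 2 the ULT1 difference grew to -5.30, since that array read 3.94 against -0.53 and -0.51 in ft-1 arrays 1 and 3.

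**Figure D3:**
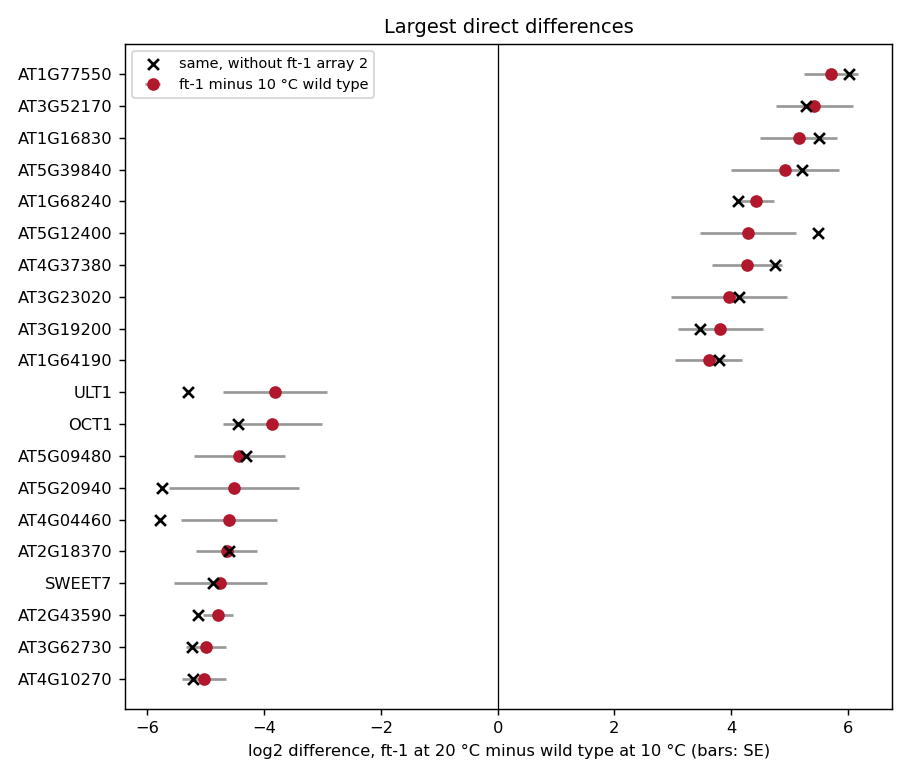
Log2 difference, ft-1 at 20 °C minus wild type at 10 °C, for the 10 largest rises (top) and 10 largest falls (bottom), with SE bars. Crosses give the difference without ft-1 array 2. The differences run from 5.71 for AT1G77550 to -5.03 for AT4G10270, and the cross lies farthest from its point in ULT1, AT5G20940, AT5G12400 and AT4G04460.

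Of the 69 plastid genome genes with a named probe set, 22 were higher and 0 lower in ft-1, beside 7.26% and 5.32% of all probe sets, and the median difference was 0.61 against -0.04 for all. At an unadjusted limma p under 0.05, 31 were higher and 4 lower, beside 15.1% and 11.9% of all. The called genes were 10 of 15 for ribosomal proteins, 4 of 6 for ATP synthase, 3 of 10 for the NDH complex, 2 of 4 for the plastid RNA polymerase and 3 of 8 others, against 0 of 20 for photosystems and 0 of 6 for cytochrome b6f. The ribosomal and ATP synthase medians were 1.52 and 1.41, and the photosystem median was 0.06. Members ran from -1.44 to 3.25. Unadjusted, 3 of the 20 photosystem genes were higher and 3 lower, a share near that of all probe sets, and 1 cytochrome b6f gene was higher.

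Single plastid genes show the spread. atpB, an ATP synthase subunit, measured 10.74, 10.30 and 10.53 in ft-1 seed, 8.98, 9.18 and 8.76 in 10 °C seed and 10.50, 10.71 and 10.20 in control seed. ndhI, of the NDH complex, measured 10.14, 7.74 and 10.01 in ft-1 seed, 5.94, 6.23 and 5.97 in 10 °C seed and 9.66, 9.47 and 9.98 in control seed. In both, the ft-1 arrays were clear of the 10 °C arrays. In atpB they overlapped with the control, and in ndhI arrays 1 and 3 lay just above it while array 2 lay between the groups. The median displacement from the control was 0.01 in ft-1 and -0.70 at 10 °C. At 10 °C 2 of the 69 were higher than the control and 29 lower, beside 6.41% and 10.7% of all probe sets. Without ft-1 array 1 the count higher in ft-1 than at 10 °C was 13, beside 640 of all 22746 probe sets. With the poly-A controls as a covariate it was 3, beside 266 of all. In these controls every ft-1 array lay below every 10 °C array, so the covariate partly stands in for group. After quantile normalization, median centring and hybridisation scaling the count higher was 23, 24 and 36, with 0 lower. Of all probe sets 1384, 2406 and 5671 were higher in these settings. Of 16 mitochondrial genes, 3 (ccb452, nad5 and cox2) were higher by 1.68, 1.45 and 0.82 and 0 lower, beside 7.26% and 5.32% of all probe sets. The count higher was 1 with the poly-A covariate and 7 with hybridisation scaling, beside 266 and 5671 of all 22746 probe sets.

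Of 66 nuclear photosynthesis genes defined, 8 had a named probe set. Of these 8, 0 were higher and 4 lower in ft-1, beside 7.26% and 5.32% of all probe sets, with a median of -1.38 (unadjusted, 1 higher and 5 lower by limma). Against the control, 3 were higher and 2 lower at 10 °C, beside 6.41% and 10.7% of all probe sets, with a median displacement of 0.03. In ft-1 0 of the 8 passed against the control, beside 0.198% of all probe sets, with a median displacement of -1.06. Beside LHCB4.3 at -3.14 ± 0.23 (SE), LHCB4.2 was lower by 1.63 and the photosystem genes PSBW and PSAE-1 by 2.07 and 2.05. LHCB4.1 differed by 0.46 and did not pass (limma adjusted p = 0.136). The same 8 genes serve as markers of green silique wall, and their summed signal, on the linear scale, was 680 to 925 in ft-1, 1342 to 1559 at 10 °C and 871 to 1388 in the control. The part of silique wall tissue in this difference was not tested.

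Defensin-like peptides and chitinases were lower in ft-1 in 7 of 17 genes and higher in 0, beside 5.32% and 7.26% of all probe sets, with a median of -0.99. Beside AT2G43590, LCR68 and LCR69, AT2G43580 was lower by 2.68, LCR67 by 0.99, PDF2.1 by 0.91 and PDF1.2b by 1.03. LCR67 measured 11.52, 11.57 and 11.87 in ft-1 seed and 12.85, 12.60 and 12.48 in 10 °C seed, among the brightest of the list. The count lower was 3 to 8 over all alternatives, with 0 higher in each. It was 3 with the poly-A covariate and 8 with array weights, beside 311 and 2270 of all 22746 probe sets. Unadjusted limma p-values gave 9 lower and 0 higher, beside 11.9% and 15.1% of all.

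LEA proteins, which protect drying embryos, were lower in ft-1 in 9 of 28 genes and higher in 1, beside 5.32% and 7.26% of all, with a median of -0.56, but after quantile normalization the split was 5 lower and 4 higher with a median near 0, and after scaling on the hybridisation controls 2 lower and 5 higher with a median of 0.07. AT3G02480 measured 11.48, 11.90 and 11.65 in ft-1 seed, 13.58, 13.28 and 13.54 in 10 °C seed and was lower in ft-1 by 1.79 ± 0.19 (SE, limma adjusted p = 3.2e-05). M17 was lower by 1.36 and AT2G18340 was higher by 0.81. Without ft-1 array 1 or 3, or 10 °C array 1 or 3, only 2 or 3 LEA genes were lower. Of the 10 storage and oil body genes the cruciferin-like AT1G03890 alone was lower, by 0.90. Without ft-1 array 2 the count was 6, with 1 higher, after quantile normalization it was 0 (list median 0.04), and with hybridisation scaling 0, with 1 higher (median 0.11). Of 6 cold-response genes, COR27, the zinc-finger gene STZ and the dehydrin gene LTI30 were lower by 1.21, 0.90 and 0.70. The count lower was 0 to 2 under the other scalings and 1 without ft-1 array 1, ft-1 array 3 or 10 °C array 1. Among all 22746 probe sets, 1198 were lower and 1384 higher after quantile normalization, and 365 lower and 5671 higher with hybridisation scaling. After median centring 848 of all were lower. Without ft-1 array 2, 1891 of all were lower and 2955 higher. Without ft-1 array 1 or 3, 631 and 648 of all were lower, and without 10 °C array 1 or 3, 586 were.

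Sugar exporters of the SWEET family were lower in ft-1 in 4 of 16 and higher in 0, beside 5.32% and 7.26% of all (unadjusted, 6 and 1 by limma). The count lower was 2 without ft-1 array 1, 10 °C array 1 or 10 °C array 3, and 1 with the poly-A covariate, where the list median turned to 0.05. With hybridisation scaling 3 were lower and 2 higher. SWEET7 measured 2.16, 2.79 and 2.64 in ft-1 seed and 7.57, 6.79 and 7.47 in 10 °C seed, and SWEET6, SAG29 (the family member SWEET15) and SWEET11 were lower by 1.59, 1.31 and 4.06. Of 11 autophagy genes, ATG3, ATG8G and APG8H were lower, by 0.89, 0.98 and 0.60. The count was 0 with hybridisation scaling, where the list median turned to 0.23 and APG8H to 0.025, and also 0 with no intensity trend and with the poly-A covariate. It was 1 after median centring and without ft-1 array 1, ft-1 array 3, 10 °C array 1 or 10 °C array 3. Among all 22746 probe sets, 365 were lower and 5671 higher with hybridisation scaling. The count of all lower was 848 after median centring, 645 with no intensity trend and 311 with the poly-A covariate. Without ft-1 array 1 or 3, 631 and 648 of all were lower, and without 10 °C array 1 or 3, 586 were.

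Small heat shock proteins, chaperones that bind unfolded proteins, were mixed: 2 of 10 were higher and 2 lower in ft-1, beside 7.26% and 5.32% of all. The count higher was 0 with no intensity trend or with only the groups compared in the fit, beside 615 and 582 of all 22746 probe sets. It was 1 without ft-1 array 2, 10 °C array 1 or 10 °C array 3, beside 2955, 765 and 819 of all. The count lower was 1 without ft-1 array 1 or 3, beside 631 and 648 of all. AT2G29500 measured 8.23, 8.80 and 8.04 in ft-1 seed, 9.96, 10.65 and 9.96 in 10 °C seed and 7.20, 7.28 and 6.98 in control seed. AT1G53540 measured 10.67, 11.64 and 10.57 in ft-1 seed, 9.30, 10.69 and 9.36 in 10 °C seed and 8.62, 8.66 and 8.60 in control seed. Both groups lay above the control in both genes. The 10 °C arrays were above the ft-1 arrays in AT2G29500, and the groups overlapped in AT1G53540, where the ft-1 mean was higher. Against the control 5 of the 10 passed in ft-1, beside 0.198% of all probe sets, and 7 were higher at 10 °C, beside 6.41%. In AT1G53540, array 2 was the highest in both groups.

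Of 51 glycosyltransferases of the UGT family, 7 were higher and 5 lower, beside 7.26% and 5.32% of all. With hybridisation scaling the counts were 16 and 2, beside 5671 and 365 of all 22746 probe sets. With an array left out they were 4 to 8 and 3 to 8. Higher calls were fewest without ft-1 array 3, where 682 of all were higher. Lower calls were fewest without 10 °C array 1, 2 or 3, where 586, 1192 and 586 of all were lower. UGT76E12 measured 9.92, 10.16 and 9.88 in ft-1 seed and 7.58, 8.51 and 8.32 in 10 °C seed, and its neighbour UGT76E11 was higher by 1.23. These copies are alike in sequence, so their signals may not be separate. UGT85A3 was higher by 2.01, and UGT76C1 was lower by 1.52. The flavonoid gene list held UGT78D2 and UGT80B1, higher by 0.78 and 1.00, and DFR, an enzyme of anthocyanin and tannin synthesis, lower by 3.40. DFR measured -0.07, 2.07 and 0.32 in ft-1 seed and 4.45, 3.66 and 4.39 in 10 °C seed, so its ft-1 arrays were in the dim range. It did not pass without ft-1 array 1 or 3, or without 10 °C array 1 or 3 (limma adjusted p = 0.0749, 0.0615, 0.0653 and 0.0624). Leaving out ft-1 array 3 brought the count higher in this list to 0, beside 682 of all 22746 probe sets. Leaving out ft-1 array 1, 10 °C array 1 or 10 °C array 3 brought it to 1, beside 640, 765 and 819 of all. BAN, which makes tannin precursors, differed by -1.74 ± 1.05 (SE) and did not pass (limma adjusted p = 0.314).

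**Figure D4:**
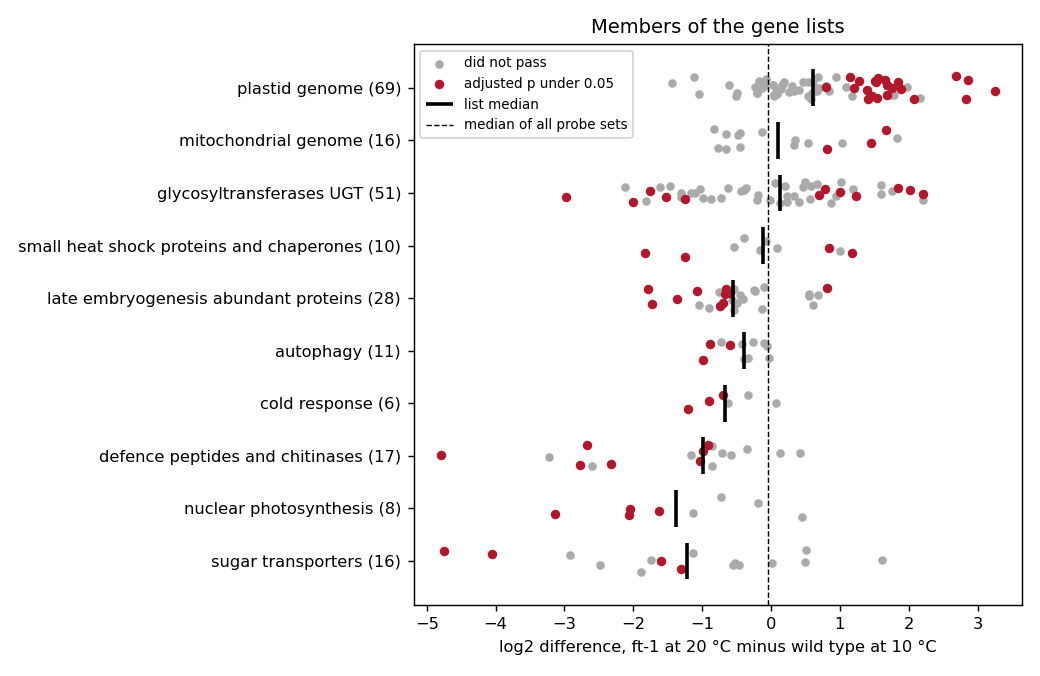
Log2 difference, ft-1 at 20 °C minus wild type at 10 °C, for each member of 10 gene lists, with the number measured in brackets. Red points passed the test, black bars are list medians and the dashed line is the median of all probe sets at -0.04. Plastid genome genes lie mostly to the right, and nuclear photosynthesis and defence peptide genes to the left.

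In a few list genes it was ft-1 seed, not 10 °C seed, that lay away from the control. The alpha-tubulin gene TUA6 measured 1.49, 0.45 and 0.98 in ft-1 seed, 4.75, 4.88 and 3.62 in 10 °C seed and 3.96, 4.17 and 3.57 in control seed. It was lower in ft-1 by 3.44 than at 10 °C and by 2.92 than in the control (limma adjusted p = 0.0011 and 0.0428), and the 10 °C and control arrays overlapped. All ft-1 arrays of TUA6 were under the dim limit of 2.88, so the size of its difference is not well fixed. The class III peroxidase gene AT1G71695 measured 5.94, 5.70 and 6.02 in ft-1 seed, 7.20, 7.17 and 7.22 in 10 °C seed and 7.15, 7.23 and 6.97 in control seed. It was lower in ft-1 by 1.31 than at 10 °C and by 1.23 than in the control.

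The remaining lists gave few calls. Among histones, HTB11 was lower in ft-1 by 1.03 beside HIS1-3, and among ubiquitin genes UBC28 and UBC19 were lower by 1.18 and 0.94 and UBP16 and UBP24 higher by 1.40 and 0.88. CP1, a cysteine protease gene of the gibberellin list, was higher by 1.81 with an adjusted p of 0.0499 by limma, though its ft-1 array 2 lay within the 10 °C range. IAA30, an auxin response repressor, was higher by 1.13, and WRKY22, a transcription factor, was lower by 1.36. Beta-glucosidases were higher in 1 (BGLU44, 1.84) and lower in 3 of 22 (BGLU19, BGLU25 and BGLU28, by 1.04, 0.99 and 1.96). Cytochromes P450 were higher in 2 and lower in 1 of 23, glutathione transferases lower in 2 of 14, cell wall loosening genes lower in 2 of 27 and serine carboxypeptidases higher in 1 of 29. Of 44 MADS-box, clock and flowering genes and 3 dormancy and abscisic acid genes (of 126 and 79 defined), 0 passed in limma, with 3 and 1 lower at an unadjusted p under 0.05. The shares for all probe sets were 7.26% higher and 5.32% lower.

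Markers of other tissues were checked for the seed samples. Of 11 pollen genes 0 passed between ft-1 and 10 °C in limma, adjusted or unadjusted, beside 12.6% and 26.9% of all probe sets. Without ft-1 array 3, 2 of the 11 were higher in ft-1, beside 682 of all 22746 probe sets. Against the control 6 of the 11 were higher at 10 °C, beside 6.41% of all probe sets. In ft-1 2 of them passed, beside 0.198% of all. The summed linear signal of the 11 genes was 892, 1394 and 278 in ft-1 and 545 to 590 at 10 °C. It was 616 to 724 in short days and 162 to 281 in the control. Array 2 was the highest of the ft-1 arrays. The part of pollen RNA in the displacements from the control was not tested. The 2 seed coat genes with a named probe set had sums of 2.27 to 24.7 in ft-1 and 9.90 to 24.4 at 10 °C. Of the 7 endosperm and 6 embryo epidermis markers defined, 0 had a named probe set in the annotation used, so these were not analysed here, and the trichome list named glabra held 1 dim gene.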

How the data were processed

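The authors deposited linear intensities, a signal for each probe set on each array. The submitters' processing notes name MAS5 and GCOS, without versions. In the deposited table each array was scaled to a common trimmed mean, so a change in total RNA per seed cannot be seen, and dim probe sets carry much noise after taking logs. Detection calls were not used here. Intensities were log2-transformed, and all 22746 non-control probe sets were fitted with limma 3.58.1 in R 4.3.3, with 1 coefficient per group over 12 arrays and an intensity-dependent variance prior. Two-sided p-values received Benjamini-Hochberg adjustment over all probe sets. The script was tested on simulated data. Of the probe sets, 13513 had 1 gene, 503 several and 8730 none in the platform annotation, updated through TAIR10.1. The 8730 are unnamed here.

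Named genes were the 10 largest rises and falls that passed, had 1 gene, did not overlap and had a mean of at least 2.88 (the 40th percentile), up to 12 opposite-direction genes each way, up to 4 per list, and HIS1-3, LCR69, MT1C, TUA6, DFR and BAN. Members and lists were chosen with earlier results of these data known. Lists cover only genes with a named probe set, taking the one with the highest mean per gene. A planned search of promoters was not made, as no sequence was used here. Alternatives were 3 other scalings, filters, an offset, other variance settings, array weights, a poly-A covariate, a replicate block, a 2-fold requirement and each array left out.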

Additional observations from a re-analysis of the deposited data

How the results depend on the processing

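The number of arrays, 3 per group, limits the precision, and dim probe sets have poorly fixed folds. The direct count of 2860 was 6036 with scaling on the hybridisation controls, 1260 with no intensity trend, 5789 with array weights, 1265 with only the groups compared in the fit, 577 with the poly-A covariate and 1271 to 4846 with an array left out. The 4 probe sets past both tests became 2 after median centring, 2 with hybridisation scaling, 2 with an offset of 16, 0 with no trend, 50 with array weights, 0 with only the groups compared, 19 with the poly-A covariate, 2 with a 2-fold requirement and 0 to 10 with an array left out. The 295 ordered ones became 192 with hybridisation scaling and 380 to 1231 with an array left out. The 1664 with the control between became 2610 with hybridisation scaling, 877 with no trend, 3812 with array weights, 862 with only the groups compared, 520 with the poly-A covariate and 803 to 3558 with an array left out. List members called, 98, became 59 with no trend, 156 with array weights, 28 with the poly-A covariate and 60 to 136 with an array left out. The cause of these shifts was not tested. With an array left out each count rests on fewer arrays, and the direct count rose for some arrays and fell for others. The poly-A covariate partly stands in for group, since every ft-1 array lay below every 10 °C array in these controls.

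The share of direct calls higher in ft-1 was 57.7%, and 73.9% after median centring, 94% with hybridisation scaling, which moved the median of all probe sets to 0.58, and 46.1% with the poly-A covariate. Signs turned for APG8H with hybridisation scaling (0.025) and, with the poly-A covariate, for ULT1 (0.13), AT4G39130 (0.11), CP1 (-0.18), HTB11 (0.15), UBP16 (-0.21) and UBP24 (-0.044). For HIS1-3, TET2 and LCR69, both displacements passed in 14, 8 and 8 of 21 alternatives.

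Same-numbered arrays of different groups did not deviate together (r of -0.057 to 0.056 over 18 pairs, against -0.074 to 0.049 over 36 other pairs). Whether they shared a harvest or batch cannot be told from this, and the labels do not say. With the replicate block, 2339 probe sets passed directly, 1 passed both tests, 1381 had the control between and 86 list members were called.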
